A study of Camellia sinensis with 15 samples.

Results

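Roots of tea plants treated with cadmium for 15 d (Cd2) were compared with roots treated with arsenic for 15 d (As2), to find how alike the 2 metals left the root transcriptome and which genes set them apart. The comparison took the 6 libraries labelled Cd2 (3) and As2 (3) out of 15 in the series, and every gene with an FPKM (the fragments of a gene scaled by its length and by a factor for the library) of at least 1 in 3 or more of these libraries. That rule kept 29540 of 59128 genes, of which 25513 carry CSS identifiers of the tea annotation and 4027 lie outside it.

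All plants were wild-type (WT) seedlings of *Camellia sinensis* cultivar Fuding Dabaicha. Per the study's methods they were 2 years old and grown in pots, and the Cd and As solutions were each given at 120 mg/kg, as Cd (II) and As (V), although the study's Results name the As solution as As (II). The remaining groups were Cd and As for 10 d (Cd1, As1) and untreated roots (CK), which shared the estimate of spread, and of which the 10 d groups were also compared with each other to follow the difference between the metals over time. GEO's labels give day 15 to every library, so the 10 d of Cd1 and As1 rests on the methods alone. The methods describe replicate root samples, without saying whether they came from separate plants, so p-values measure the spread between these libraries, which may be technical.

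Cadmium is a non-essential divalent metal that enters roots through carriers meant for iron, zinc and manganese. Arsenate enters through phosphate transporters and is reduced inside the cell to arsenite, and arsenite itself enters through aquaporins. Both Cd and arsenite bind thiols, and plant cells chelate both with phytochelatins, short peptides made from glutathione, before moving them into the vacuole. Each metal also provokes oxidative stress, and genes of abscisic acid (ABA) signalling, soluble sugar synthesis and metal binding commonly respond to such stress in plants.

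The values came from 10843567 to 12995614 fragments per Cd2 library and 10483112 to 12099167 per As2 library, as recovered from the FPKM steps. The library factor in the FPKM values did not follow these fragments alone. It was larger in As2 replicate 3 (1.15, with CK replicate 1 set to 1) than in As2 replicate 1 (1.12), which had fewer fragments. The file of Cd1 replicate 3 repeated the values of Cd2 replicate 1 for every gene and names Cd2 in its header, so that library was used once, under Cd2. This left 14 libraries in the series, 2 of them Cd1. The CSS identifiers are paired with gene names in none of the tables used here (0 matched), so functions are given only for the genes whose identity the study's text states, and the root identity of the tissue could not be checked against markers. In bulk RNA, fewer cells of a type and less RNA per cell cannot be told apart.

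Libraries of different metals were about as alike as replicates of As2, and less alike than replicates of Cd2. Across the 29540 genes on the log2(FPKM + 1) scale, the 9 pairs of a Cd2 and an As2 library had Pearson correlations of 0.877 to 0.936 (median 0.925). The 6 pairs within a metal had correlations of 0.917 to 0.957 (median 0.937). These are correlations across genes of the same annotation, which are not independent replicates, and they are given as a description.

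Of the 9 pairs between metals, 6 were more alike than the least alike pair within a metal. The 3 Cd2 libraries correlated at 0.942 to 0.957 among themselves, above every pair between metals, and each had another Cd2 library as its nearest. The As2 libraries correlated at 0.917 to 0.932 among themselves. As2 replicate 1 was nearest to Cd2 replicate 2, and As2 replicate 2 was nearest to Cd2 replicate 3, so 2 of the 3 As2 libraries had a Cd2 library as their closest.

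**Figure D1:**
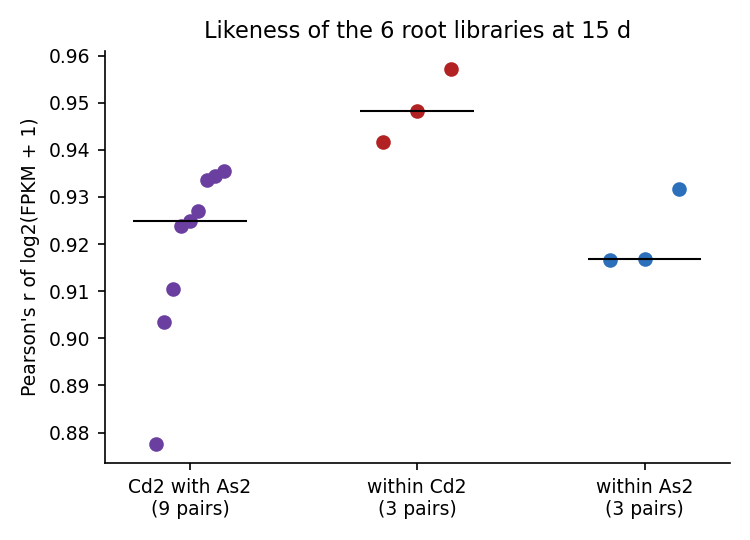
Pearson correlation on log2(FPKM + 1) over 29540 genes for each pair of the 6 libraries, in columns for the 9 pairs between the metals, the 3 within Cd2 and the 3 within As2, with 1 point per pair and a line at the median of each column. Pairs between the metals reach down to 0.877 (Cd2 replicate 1 with As2 replicate 2), and 6 of the 9 lie above the lowest pair within a metal.

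The mean distance (1 minus the correlation) was 0.0810 between metals and 0.0646 within them, a gap of 0.0164. An exact one-sided permutation test over the 6 libraries gave p = 0.1, the smallest this design allows, so it cannot reach a threshold of 0.05. The gap was 0.00353 without Cd2 replicate 1, 0.00896 without Cd2 replicate 2 and 0.0305 without As2 replicate 1.

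Replicates spread more under As. The median SD of a gene on the log2 scale was 0.25 in Cd2 and 0.32 in As2, and 63.3% of genes had the larger SD in As2. The spread was not tested between the metals.

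Gene by gene, the difference (Cd2 minus As2 on the log2(FPKM + 1) scale, which understates fold changes of genes at low FPKM) had a median of -0.01. The median of its absolute size was 0.26 and the 95th percentile was 1.02. The differences ran from -3.78 to 3.19, and 1565 genes (5.3%) exceeded 2-fold, with 742 higher in Cd2 and 823 lower.

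A single gene passed the study's threshold for differentially expressed genes (DEGs), an adjusted p under 0.05 and a difference over 2-fold, in limma with Benjamini-Hochberg adjustment. That is 0.00339% of the genes tested, and the gene was higher in Cd2. No gene was called lower in Cd2, although 1906 genes were lower (6.45%) and 1964 higher (6.65%) at an unadjusted p under 0.05, or 13.1% of genes in either direction, and limma-voom on the recovered fragments called 1 lower and 1 higher. At an adjusted p under 0.10, limma gave 28 genes, 6 higher and 22 lower. The second-lowest adjusted p was 0.0756.

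The DEG, CSS0038485, is not described in the study's text and has no name in the tables used here. It had 49.0, 47.5 and 49.1 FPKM in the Cd2 libraries, against 19.8, 20.03 and 20.7 FPKM in the As2 libraries. The groups were far apart, and within each metal the libraries nearly coincided. These values rested on 356, 274 and 316 recovered fragments in Cd2 and 112, 115 and 114 in As2. Counting at such numbers adds spread of its own. The gene also had the lowest p of the 29540 tested, a choice that favours a small spread. The closeness of its libraries is therefore not read as a trait of the gene. CK libraries lay between the metals, at 31.1, 25.1 and 29.3 FPKM.

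The mean of CSS0038485 was 48.5 ± 0.88 FPKM in Cd2 and 20.2 ± 0.46 FPKM in As2 (SD, n = 3 each). The log2 difference was 1.23 ± 0.12 (SE), with a 95% interval of 0.96 to 1.49 and an adjusted p of 0.00683 in limma. At 10 d the gene differed little, with 29.78 and 31.3 FPKM in Cd1 and 29.77, 29.2 and 29.6 FPKM in As1, a log2 difference of 0.05. The groups did not overlap there either, but their nearest libraries were almost equal. The difference at 15 d exceeded that at 10 d by 1.18 ± 0.18 (SE), with an adjusted p of 0.0259 in limma. The gene was picked by its 15 d difference, which is part of this contrast, so the p is not independent evidence of a change with time.

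The call on CSS0038485 depended on the libraries and the model, while the size did not. Leaving out a library moved the log2 difference only between 1.21 and 1.25, but in limma the adjusted p was 0.0841 with Cd2 replicate 1 left out, 0.0753 with Cd2 replicate 2, 0.0675 with As2 replicate 1 and 0.0593 with As2 replicate 2. It was 0.112 when only the 6 libraries were modelled, and 0.134 with the identical library kept under both labels. When the third replicate of either metal was left out, 3 DEGs were called, and with any of the other 4 libraries left out, 0 were.

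**Figure D2:**
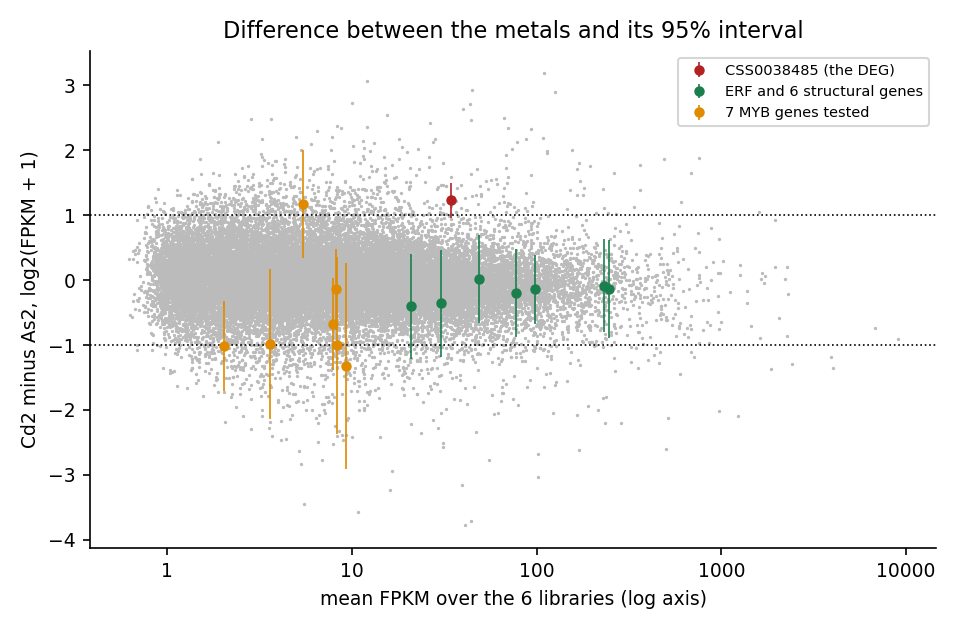
Difference Cd2 minus As2 on the log2(FPKM + 1) scale against the mean FPKM of the 6 libraries (log axis), with 1 grey point per gene, coloured points for the DEG, the ERF and 6 structural genes and the 7 MYB genes tested, bars for 95% intervals, and dotted lines at 2-fold. CSS0038485 stands at 1.23 with a short interval, while the ERF and structural genes lie between -0.40 and 0.02.

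A missed threshold does not show that genes were alike, so likeness was read from the 95% intervals of the limma fit. The interval lay wholly within 2-fold for 16614 genes (56.2%), within 1.5-fold for 4530 genes (15.3%) and within 4-fold for 27770 genes (94.0%). For 50 genes it lay wholly beyond 2-fold, with 16 higher in Cd2 and 34 lower. The median gene had a half-width of 0.63 on the log2 scale. The share within 2-fold depended on the scale, at 41.1% with a pseudocount of 0.1 and 41.2% by limma-voom.

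Bounds were narrower for well expressed genes, up to a point. The share bounded within 2-fold was 42.8% of the 11536 genes with a mean under 5 FPKM and 60.4% of the 10277 genes at 5 to 20 FPKM. It was 72.6% of the 6476 genes at 20 to 100 FPKM and 61.2% of the 1251 genes above 100 FPKM. The 5 genes at 20 FPKM or more with the tightest bounds had intervals reaching no further than 0.27 from 0, with differences of -0.01 to 0.01.

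**Figure D3:**
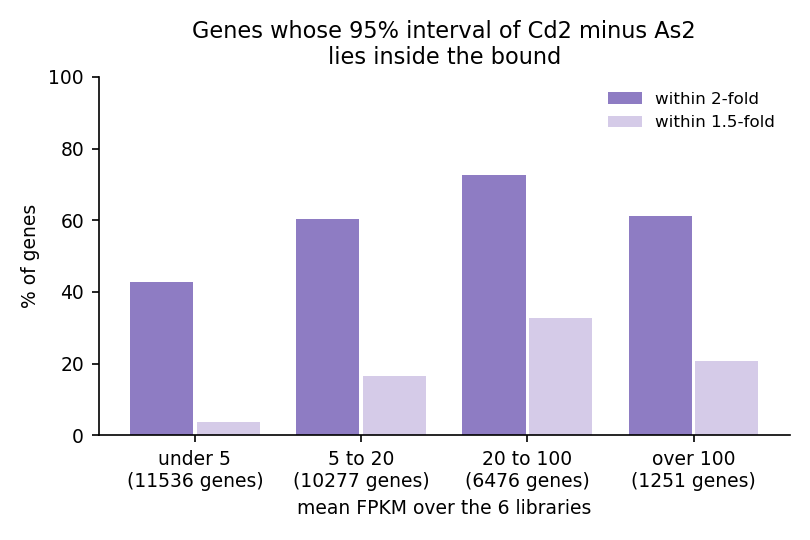
Share of genes (%) whose 95% interval for Cd2 minus As2 lies within 1.5-fold or 2-fold, by mean FPKM over the 6 libraries. The 2-fold share is 42.8% in the lowest class and reaches 72.6% at 20 to 100 FPKM.

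Highly expressed genes leaned to lower values in Cd2. The share of genes lower in Cd2 by any amount was 51% over all genes. By class of mean FPKM it was 47.4% under 5 FPKM, 49.7% at 5 to 20 FPKM, 57.8% at 20 to 100 FPKM and 60.8% above 100 FPKM. The median difference in those classes was 0.03, 0.00, -0.07 and -0.10. The classes were set by the mean FPKM of the same 6 libraries, in which As2 spread more, so class and difference are not independent. How far this shapes the lean was not tested.

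Among the 100 most abundant genes and among the 20 most abundant, 60% were lower in Cd2, no more than in the whole class above 100 FPKM. The 5 most abundant genes summed to 13782, 17053 and 20508 FPKM in the Cd2 libraries, against 25383, 33539 and 46647 FPKM in the As2 libraries, with no overlap. All 5 were lower in every Cd2 library than in any As2 library, against 10.6% of all genes, with log2 differences of -1.36 to -0.74, yet none was called in limma (adjusted p 0.222 to 0.539). As2 replicate 3 was the highest of the 6 libraries for 4 of these 5 genes. The genes were ranked by their mean over the same libraries, so their share beside that of all genes is a description only. The 100 genes with the highest mean over the 6 libraries held 12.8% to 14.5% of a library's summed FPKM in Cd2. In As2 they held 15.2% to 18.3%. A different set, the 100 genes with the most fragments in each library, was taken as a share of recovered fragments. That set held 12.0%, 13.0% and 13.2% in the Cd2 libraries, against 12.9%, 14.4% and 15.6% in the As2 libraries, and the metals overlapped. These shares differ in both genes and measure. The part they play in the differences was not tested.

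The study's text names 22 genes, which it chose on these same libraries, so their counts are not independent evidence of a direction. Of these, 20 passed the FPKM filter in the 6 libraries, and none was a DEG between the metals. Differences were above 0 for 5 and below 0 for 15 (median -0.28, against -0.01 over all genes), and 7 of the 20 were bounded within 2-fold, against 56.2% of all genes. Non-overlapping groups were seen for 2 of the 20, against 20.7% of all genes.

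Among these, an ERF gene and 6 structural genes are treated together in the study's text. They are an AP2/ERF transcription factor of the ERF branch (CSS0000647), 3 galactinol synthases (GolS, CSS0001107, CSS0019367 and CSS0035212), a raffinose synthase (CSS0050491), a 9-cis-epoxycarotenoid dioxygenase (NCED, CSS0033791) and a heavy metal-associated isoprenylated plant protein (HIPP, CSS0006162). GolS makes galactinol, from which raffinose synthase builds raffinose, an osmoprotectant. NCED cleaves carotenoids in the committed step of ABA synthesis, and HIPP proteins bind metal ions through a heavy-metal-associated domain.

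Against CK these 7 genes had log2 differences of 1.19 to 1.81 in Cd2 and 1.35 to 1.79 in As2, and none passed limma in either comparison (adjusted p 0.0854 to 0.237 for Cd2 and 0.115 to 0.205 for As2). Between the metals, log2 differences lay between -0.40 and 0.02, and none passed limma (adjusted p 0.706 to 0.988). Non-overlapping groups were seen for 0 of the 7, against 20.7% of all genes, and 5 of the 7 intervals lay within 2-fold, against 56.2% of all genes, shares from which nothing particular to the 7 genes is read. The intervals that did not were those of the raffinose synthase (-1.21 to 0.41) and the NCED gene (-1.18 to 0.46).

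CSS0000647, the ERF gene, had 43.2, 47.5 and 50.5 FPKM in the Cd2 libraries, against 84.0, 34.0 and 34.6 FPKM in the As2 libraries, and CK averaged 13.0 ± 3.64 FPKM (SD, n = 3). As2 replicate 1 lay above and the other As2 libraries below all Cd2 libraries. The log2 difference was 0.02 ± 0.32 (SE), with a 95% interval of -0.66 to 0.70. In the 10 d libraries it was near 1 FPKM under both metals, with means of 1.07 FPKM in Cd1 (n = 2) and 1.04 FPKM in As1 (n = 3).

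CSS0001107, the GolS gene with the shortest interval of the 3, had 93.3, 87.6 and 92.6 FPKM in Cd2, against 149, 81.2 and 84.5 FPKM in As2. On the log2 scale the difference was -0.14 with an interval of -0.68 to 0.39. CSS0035212, the most abundant GolS gene, had 219, 193 and 235 FPKM in Cd2, against 392, 197 and 154 FPKM in As2. In both genes the As2 libraries spanned a wider range than the Cd2 libraries, which they enclosed.

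CSS0050491, the raffinose synthase, had 17.1, 11.3 and 24.8 FPKM in Cd2, against 37.3, 15.4 and 20.01 FPKM in As2. CSS0033791, the NCED gene, had 20.6, 26.5 and 30.0 FPKM in Cd2, against 52.0, 26.6 and 25.7 FPKM in As2. CSS0006162, the HIPP gene, had 230, 224 and 233 FPKM in Cd2, against 366, 236 and 185 FPKM in As2. In each of these genes As2 replicate 1 was the highest library, and in the first 2 the other As2 libraries lay within the range of Cd2.

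As2 replicate 1 was the highest of the 6 libraries in all 7 genes, against 16.4% of all genes tested. Its median over the 7 genes on the log2 scale was 6.97, while the other As2 libraries had 5.99 and 6.06 and the Cd2 libraries 6.22, 5.95 and 6.26. Without As2 replicate 1 the log2 difference was 0.44 for CSS0000647, 0.14 for CSS0001107, 0.12 for CSS0019367, 0.31 for CSS0035212 and 0.13 for CSS0006162, so the sign turned for the last 4 of these. None of the 7 was called when any library was left out or under the other fits on log2(FPKM + 1).

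**Figure D4:**
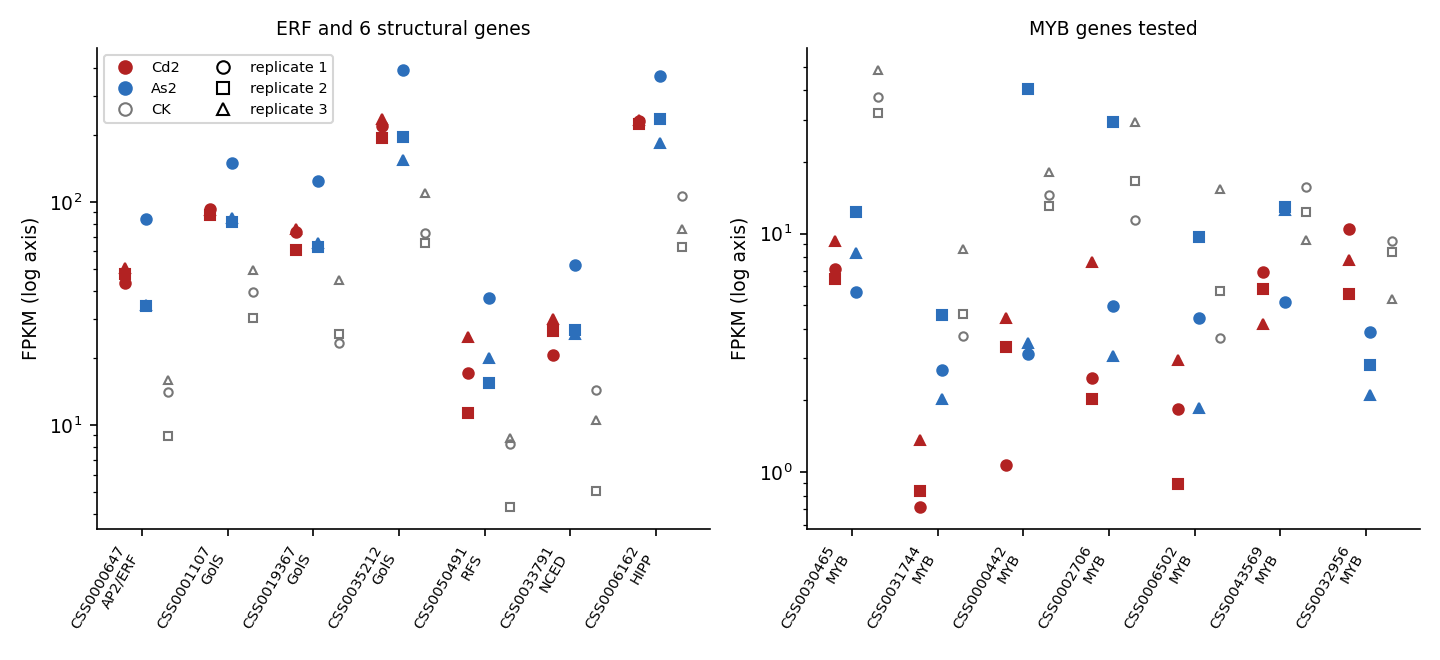
FPKM (log axis) of the ERF and 6 structural genes (left) and the 7 MYB genes tested (right), with 1 point per library of Cd2 (red), As2 (blue) and CK (open grey) and the replicate shown by its shape. As2 replicate 1 (blue circle) is the highest of the 6 metal libraries in all 7 genes on the left, and As2 replicate 2 (blue square) is the highest in 6 of the 7 MYB genes.

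The MYB family holds many transcription factors of development, phenylpropanoid synthesis and stress. The study lists 7 of its 8 MYB genes as reduced under Cd. It lists CSS0032956 as reduced under As, and CSS0030465 under both. The lists were drawn from these same libraries, so the direction of a gene here is not independent of its list. Of the 8 MYB genes in the study's text, 7 passed the filter. The difference was below 0 for 6 and above 0 for 1 (median -0.99, against -0.01 over all genes), but no MYB gene was a DEG (lowest adjusted p 0.209 in limma), and 1 was bounded within 2-fold. An unadjusted p under 0.05 was found for 2 of the 7, against 13.1% of all genes.

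These 2 MYB genes were also the ones of the 7 with non-overlapping groups, against 20.7% of all genes. They lay in opposite directions, each lower under the metal for which the study lists it as reduced. CSS0031744 had 0.72, 0.84 and 1.37 FPKM in the Cd2 libraries, against 2.69, 4.54 and 2.04 FPKM in the As2 libraries, and CK had 3.74, 4.61 and 8.60 FPKM. The difference on the log2 scale was -1.02 ± 0.32 (SE), with a 95% interval of -1.72 to -0.32 and an adjusted p of 0.209 in limma. Every Cd2 library lay below every As2 library.

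CSS0032956 was the MYB gene above 0. It had 10.5, 5.59 and 7.76 FPKM in the Cd2 libraries, against 3.89, 2.81 and 2.10 FPKM in the As2 libraries, and CK had 9.28, 8.39 and 5.31 FPKM. The Cd2 libraries lay in the range of CK or just above it, and every As2 library lay below both. Its log2 difference was 1.17 ± 0.38 (SE), with a 95% interval of 0.34 to 2.01 and an adjusted p of 0.223 in limma.

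At 10 d CSS0032956 differed in the same direction. Cd1 had 7.09 and 14.1 FPKM and As1 had 2.14, 2.85 and 0.45 FPKM, a log2 difference of 2.09 with an adjusted p of 0.0314 in limma, which passed the test. The 2 differences were not shown to be unequal (adjusted p 0.545 for their difference in limma). The study lists CSS0032956 as reduced under As from the same series of libraries. The adjusted p of 0.0314 in limma at 10 d is therefore not independent evidence of a difference between the metals.

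The other 5 MYB genes tested had overlapping groups and log2 differences of -1.32 to -0.14. As2 replicate 2 was the highest of the 6 libraries in each of these 5 genes. CSS0000442 had 1.08, 3.34 and 4.43 FPKM in Cd2, against 3.14, 40.3 and 3.49 FPKM in As2. CSS0002706 had 2.50, 2.03 and 7.63 FPKM in Cd2, against 4.96, 29.4 and 3.08 FPKM in As2. Apart from As2 replicate 2, the libraries of both metals lay together in these 2 genes.

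As2 replicate 2 was the highest of the 6 libraries for 6 of the 7 MYB genes tested, against 20.6% of all genes. Without it, the log2 difference was -0.24 for CSS0000442 and -0.13 for CSS0002706, against -1.32 and -1.01 with all 6 libraries. The eighth MYB gene, CSS0015964, was below the filter, with 0.14, 0.45 and 0.40 FPKM in Cd2, against 0, 3.45 and 0 FPKM in As2, again with As2 replicate 2 apart.

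AP2/ERF proteins are transcription factors of ethylene and abiotic stress responses. Of 6 such genes in the study's text, the ERF gene above included, 5 passed the filter, 4 above and 1 below 0, with a median difference of 0.16 and none called (lowest adjusted p 0.365 in limma). CSS0018401 had 293, 331 and 233 FPKM in Cd2, against 182, 213 and 250 FPKM in As2, a log2 difference of 0.40 with an interval of -0.01 to 0.82. CSS0049619 had 38.1, 48.2 and 78.3 FPKM in Cd2, against 84.1, 195 and 76.5 FPKM in As2, a log2 difference of -1.03 with an interval of -2.02 to -0.04. In both genes a single pair of values kept the groups from separating.

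CSS0034513 and CSS0009309 had lower values in every library of both metals than in any CK library. CSS0034513 had 4.67, 4.47 and 5.85 FPKM in Cd2, against 4.66, 10.4 and 1.37 FPKM in As2, while CK had 79.0, 42.9 and 78.6 FPKM. CSS0009309 had 9.996, 8.62 and 7.72 FPKM in Cd2, against 3.95, 23.3 and 3.95 FPKM in As2, while CK had 99.3, 40.3 and 83.5 FPKM. Their log2 differences between the metals were 0.16 and 0.21, with intervals of -1.06 to 1.38 and -1.11 to 1.54, too wide to place them within 2-fold. CSS0043971 was below the filter, at no more than 0.26 FPKM in Cd2 and 3.83 FPKM in As2.

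CSS0004428 encodes a calcineurin B-like protein (CBL), a calcium sensor that acts with CIPK kinases in ion stress signalling. It had 15.4, 46.4 and 4.61 FPKM in Cd2, against 4.003, 48.3 and 62.7 FPKM in As2, so the libraries of each metal spanned a wide range and overlapped. The log2 difference of this gene was -0.62 ± 1.02 (SE), with a 95% interval of -2.83 to 1.59, which leaves differences beyond 4-fold in the lower direction within its bounds. CSS0041447, of the bHLH family of transcription factors, had 21.7, 31.3 and 25.5 FPKM in Cd2, against 34.0, 30.2 and 61.3 FPKM in As2, with a log2 difference of -0.60 and an interval of -1.40 to 0.20.

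Non-overlapping groups, with every Cd2 library on the same side of every As2 library, were seen for 6109 genes (20.7%), 2985 higher (10.1%) and 3124 lower (10.6%) in Cd2. With a difference over 2-fold as well, 1099 genes remained (3.72%), 566 higher and 533 lower. This is a description of the libraries, with no test. Leaving out a library removes a condition on overlap, and the number was then between 1067 and 1933, with the highest values without As2 replicate 1 (1933) and without Cd2 replicate 3 (1729).

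Untreated roots mostly lay between the metals for these genes. The CK mean fell between the Cd2 and As2 means for 419 of the 566 higher genes and 392 of the 533 lower genes, against 35.8% of all genes tested. It lay above both metals for 98 of the higher and 113 of the lower genes, and below both for 49 of the higher and 28 of the lower genes. A value between is more likely by construction where the metals lie far apart, so this is given as a description only.

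The largest separated differences were 2.43 to 3.07 among the 10 widest genes higher in Cd2 and -3.78 to -2.68 among the 10 widest lower, among genes with a mean of at least 5 FPKM in the higher group. None of the 20 was called in limma (adjusted p 0.0756 to 0.568).

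CSS0005269, at the top of the higher set, had 21.2, 38.3 and 8.76 FPKM in Cd2, against 1.16, 0.93 and 2.46 FPKM in As2. Its log2 difference was 3.07 ± 1.09 (SE), with a 95% interval of 0.71 to 5.42. The CK libraries ranged over 100.9, 37.8 and 1.68 FPKM, so untreated roots alone spanned more than the gap between the metals.

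CSS0038529, next in the higher set, had 17.9, 18.3 and 216 FPKM in Cd2, against 9.06, 4.30 and 2.41 FPKM in As2. Its log2 difference of 2.92 ± 0.98 (SE) leaned on Cd2 replicate 3, without which it was 1.75. The nearest libraries of the 2 groups were 17.9 FPKM in Cd2 and 9.06 FPKM in As2.

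CSS0048204, at the bottom of the lower set, had 2.25, 2.98 and 4.27 FPKM in Cd2, against 22.8, 41.9 and 172 FPKM in As2. Its log2 difference was -3.78 ± 1.12 (SE), with a 95% interval of -6.20 to -1.36 and an adjusted p of 0.186 in limma. At 10 d it had 810 and 31.1 FPKM in Cd1 and 42.5, 48.5 and 86.2 FPKM in As1, so the metals were not apart in the same way.

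CSS0011049 was the next lower gene and the most even of these 4. It had 9.72, 3.64 and 4.11 FPKM in Cd2, against 78.5, 92.3 and 76.9 FPKM in As2, and CK had 17.1, 8.53 and 22.4 FPKM. The As2 libraries lay close together, and above all Cd2 and CK libraries. Its log2 difference was -3.72 ± 0.93 (SE), with a 95% interval of -5.74 to -1.69 and an adjusted p of 0.158 in limma, and 1 of the Cd1 libraries reached 610 FPKM.

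**Figure D5:**
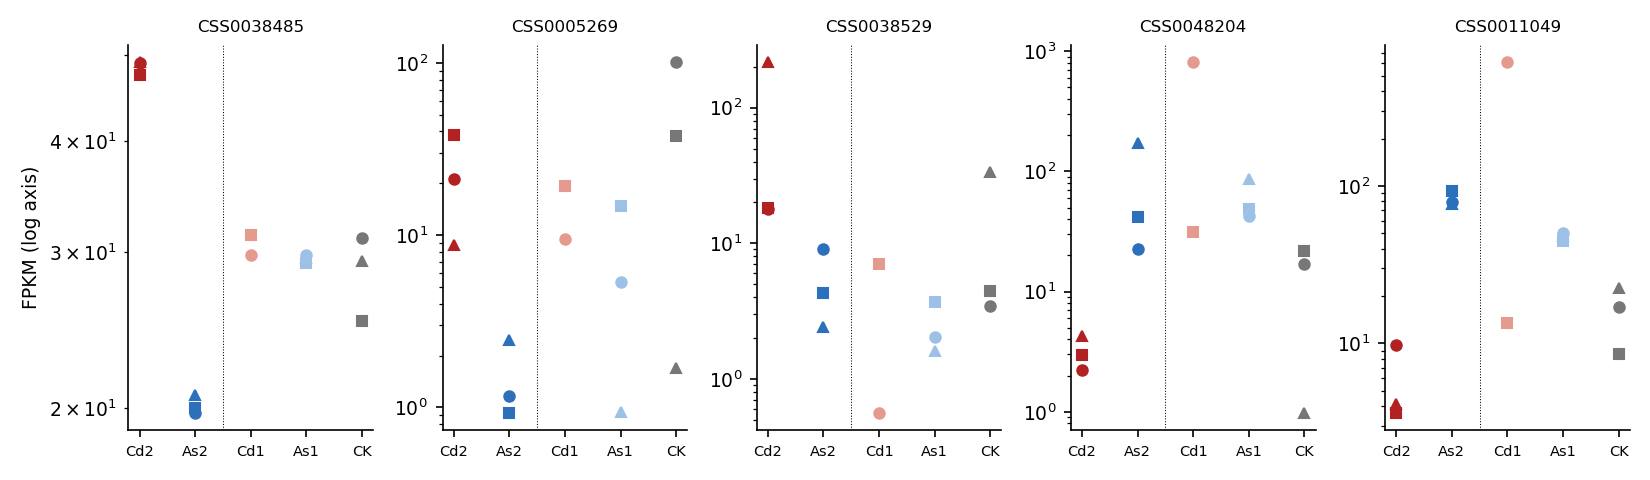
FPKM (log axis, with its own range in each panel) of the DEG and of the 2 widest separated genes in each direction, with 1 point per library of Cd2, As2, Cd1, As1 and CK in that order, and the replicate shown by its shape. For CSS0038485 the 3 Cd2 libraries lie at 47.5 to 49.1 FPKM and the 3 As2 libraries at 19.8 to 20.7 FPKM, and for the other 4 genes the points within a group are farther apart.

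The separated genes were followed to 10 d, where the Cd1 and As1 libraries had no part in choosing them. Of the 1099 genes, 760 (69.2%) had a Cd1 minus As1 difference of the same sign, against 56.6% of all genes tested. Of the genes higher in Cd2, 81.1% were higher in Cd1 than in As1, against 50.3% of all genes. Of the genes lower in Cd2, 56.5% were lower in Cd1, against 49.7% of all genes. Without As2 replicate 2 the share of equal sign in both directions was 56.7%, against 50.8% of all genes. Without Cd2 replicate 1, whose values were also filed as Cd1, it was 60.8%, against 54.0% of all genes.

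More genes passed the test between the metals at 10 d. Cd1 against As1 gave 544 DEGs in limma (1.84% of the same 29540 genes), 154 higher and 390 lower in Cd1, with 2 libraries of Cd1. Differences over 2-fold were seen for 3386 genes (11.5%) at 10 d, against 1565 genes (5.3%) at 15 d. A mean of 2 libraries passes 2-fold more readily through spread alone, so these counts are not on equal terms. No Cd1 or As1 library was left out in turn. The difference between metals itself differed between the times for 86 genes (0.291%) in limma, at an adjusted p under 0.05 and over 2-fold. Leaving out 1 library moved that number in every case, to 53, 32 and 37 without Cd2 replicates 1, 2 and 3, and to 20, 307 and 20 without As2 replicates 1, 2 and 3.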

How the data were processed

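RNA from tea roots was sequenced as paired reads. Per the study's methods, trimmed reads were aligned by HISAT to a tea genome, and the authors deposited an FPKM value per gene and library, in whose calculation the paper names DESeq2. The genome version is not given in the sources used here. The deposited gene annotation held 0 CSS identifiers and was not used, nor was the RefSeq table, so no positions or sequences are given and the planned lists of metal response families could not be formed.

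Groups were taken from the labels. Genes at 1 FPKM or more in 3 or more of the 6 libraries were tested on log2(FPKM + 1), with a pseudocount of 1, in limma 3.58.1 (R 4.3.3, eBayes with trend), with the 14 libraries of all 5 groups in a single model and the 95% interval of each difference. DEGs had a Benjamini-Hochberg adjusted p under 0.05 and a difference over 2-fold. Whole fragments were recovered from the FPKM steps for 46517 of the 46517 genes above 0 (100%) and used for depth and for limma-voom as an alternative. The scripts were tested on simulated data. Other values and the plots came from Python 3.11.15, numpy 2.4.6, pandas 2.3.3 and matplotlib 3.10.9.

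The rule for named genes took the genes of the study's text, the DEGs, up to 10 separated genes in each direction with a mean of at least 5 FPKM in the higher group, the 5 genes at 20 FPKM or more with the tightest bounds and the 5 most abundant genes. Because the identifiers are not paired with names, only the first 2 separated genes in each direction are named and the rest are given by their ranges. The comparison, the members and the lists were chosen with earlier results of these data known. Alternatives varied the filter and the scaling, the pseudocount, which libraries the model held, the treatment of the identical libraries, the bound and the test, and each library of Cd2 and As2 was left out in turn. The alternatives for the comparison with 10 d were chosen after seeing the data.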

Additional observations from a re-analysis of the deposited data

Results flagged for a closer look

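The difference between the metals was itself different at 15 d and 10 d for 86 genes, by the test of the metal by time term in limma (adjusted p under 0.05 and over 2-fold). At an unadjusted p under 0.05 for that term, with no limit on size, there were 3800 genes. Of the 86, 46 also had non-overlapping groups of any size at 15 d, against 20.7% of all genes. The term contains the 15 d difference, so the 2 are not independent. For CSS0038485, the Cd minus As difference at 15 d exceeded that at 10 d by 1.18 on the log2 scale, with an adjusted p of 0.0259 in limma. As the gene was picked by its 15 d difference, this p is not independent evidence of a change with time. Groups of 3 libraries were too small to look for single outlying values.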

How the results depend on the processing

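The number of DEGs was 1 under all filters tried and median-ratio scaling. That scaling left the values almost as they were (1087 separated genes, against 1099), so its equal number is a weak check. The number of DEGs was 2 with a pseudocount of 0.1, 4 with quantile normalization (1 higher, 3 lower), 2 by limma-voom, and 1169 with an unadjusted p and over 2-fold. It was 0 with only the 6 libraries (4225 genes at an unadjusted p under 0.05), with the identical library left out under both labels (2348) and kept under both (3484). Same-numbered libraries of Cd2 and As2 deviated together with r of 0.30, -0.01 and -0.06, so the numbers were not taken to pair them, and a fit with the replicate block gave 0 DEGs (4463 genes at an unadjusted p under 0.05), with an adjusted p of 0.182 for CSS0038485 in limma. Leaving out a library gave 0 to 3 DEGs, 13258 to 14547 genes within 2-fold, 1067 to 1933 separated genes, a distance gap of 0.00353 to 0.0305, 56.7% to 74.1% of equal sign at 10 d and 20 to 307 genes that differed between times. Genes within 2-fold were 12132 (41.1%) with a pseudocount of 0.1 and 12171 (41.2%) by limma-voom, against 16614 (56.2%) in the main fit. They were 27633 of 44720 genes (61.8%) with no filter on FPKM. With a bound of 1.5-fold there were 4530. Separated genes were 1780 with a pseudocount of 0.1, 695 with an FPKM of at least 1 in all 6 libraries and 6109 with no limit on size. Genes that differed between times were 51 with no filter, 53 with the identical library left out under both labels and 4 with it kept under both. Quantile normalization turned the sign of CSS0035212 (0.0399) and CSS0006162 (0.0147). Leaving out a library turned the sign for CSS0000647 (-0.20 to 0.44), CSS0001107 (-0.30 to 0.14), CSS0019367 (-0.37 to 0.12), CSS0035212 (-0.37 to 0.31), CSS0006162 (-0.36 to 0.13), CSS0004428 (-1.78 to 0.15), CSS0030465 (-0.39 to 0.11), CSS0034513 (-0.43 to 0.71) and CSS0009309 (-0.17 to 0.98). The cause of these changes was not tested. With 3 libraries a metal, 3870 of the 29540 intervals left out 0.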
